A study of Mus musculus with 8 samples.

Results

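The forkhead factors Foxo1, Foxo3 and Foxo4 and 7 genes that restrain growth signalling upstream of the kinase complex mTORC1 were examined in G0 and G1 basal cells from mammary glands of mice. These 10 genes, Foxo1, Foxo3, Foxo4, Pik3ip1, Tsc1, Tsc2, Ddit4, Sesn1, Sesn2 and Txnip, were taken by name from the 54837 gene rows of the count table. All 10 have a row, and 9 passed the filter on low counts that left 15192 genes for testing. Foxo4 did not pass it. Basal cells form the outer layer of the ducts and include the contractile myoepithelial cells. In the study they were separated by cell cycle phase into G0, the state of cells that have left the cycle, and G1, in which cells grow before they copy their DNA, and polyadenylated RNA was sequenced. The strain is given as C57BL/B6 for all 8 libraries and no treatment was applied. The sources used here do not give genotype, age, the number of animals behind a library or the sorting markers. A G0 and a G1 library came from each of 4 runs. Whether the runs used separate animals is not stated, so p-values here cover only the spread among the 8 samples, and that spread may be technical.

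Total counts ranged from 5868728 to 15014104 per library. The G0 library of run 4 was the shallowest, yet 39094 genes had a count in it, while the other 7 had 20836 to 26614. The 10 basal markers, among them Krt5, Krt14 and Acta2, summed to 23273 to 30575 CPM (the count relative to the library size, scaled by TMM factors) in G0 and to 32518 to 36225 in G1. The 14 endothelial markers summed to 200 to 431 CPM in G0 and to 45.8 to 173 in G1, the 10 fibroblast markers to 259 to 977 and 289 to 692, and the 7 adipocyte markers to 152 to 436 and 32.7 to 210. Most of the adipocyte sum was Fabp4, at a mean of 219 CPM in G0 and 88.3 CPM in G1. Adipoq, Plin1 and Cidec averaged 0.772, 0.629 and 0.585 CPM in G0. None of the basal, endothelial, fibroblast and adipocyte markers was at 0 in every library.

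FoxO proteins are transcription factors that the kinase AKT phosphorylates and keeps out of the nucleus when insulin or growth factors activate PI3K. When that signal falls they enter the nucleus and switch on genes of cell cycle arrest, stress defence and catabolism. mTORC1 promotes protein synthesis and cell growth, and it is switched on at the lysosome by the small GTPase Rheb together with the amino acid sensing Rag GTPases. Tsc1 and Tsc2 form the complex that turns Rheb off, Ddit4 (also called REDD1) acts through that complex under stress, sestrins hold back the amino acid arm, Pik3ip1 inhibits PI3K itself, and Txnip binds thioredoxin and limits glucose uptake.

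The start regions of Ddit4, Txnip and Sesn1 are shown because a motif for FoxO factors, low oxygen or glucose, known inputs to these genes, was found there. Promoter sequences, 250 bases before to 50 bases after the start, are from RefSeq on GRCm38.p6, and 9 of the 10 genes matched, with 10 start sites. Motifs were searched on both strands, and they are in capitals. They are the FoxO motif GTAAACA, the hypoxia response core ACGTG and the carbohydrate response element, to which the glucose-responsive factor ChREBP binds. Among all 32851 promoters of this length, 3.65% held the first, 19.6% the second and 0.049% the third. Of the 9 genes, 2 held a FoxO motif, 1 the hypoxia core and 1 the carbohydrate element.
Ddit4, chr10:59951721-59952020, minus strand, with the hypoxia core from -187 to -183 relative to the start: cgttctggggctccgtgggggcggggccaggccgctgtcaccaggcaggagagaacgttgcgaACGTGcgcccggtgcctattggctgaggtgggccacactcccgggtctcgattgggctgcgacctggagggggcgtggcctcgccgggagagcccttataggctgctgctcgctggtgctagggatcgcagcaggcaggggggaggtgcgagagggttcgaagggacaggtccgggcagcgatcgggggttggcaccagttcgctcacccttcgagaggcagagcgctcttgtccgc
Txnip, chr3:96557707-96558006, plus strand, with the FoxO motif from -121 to -115 and the carbohydrate element from -85 to -69: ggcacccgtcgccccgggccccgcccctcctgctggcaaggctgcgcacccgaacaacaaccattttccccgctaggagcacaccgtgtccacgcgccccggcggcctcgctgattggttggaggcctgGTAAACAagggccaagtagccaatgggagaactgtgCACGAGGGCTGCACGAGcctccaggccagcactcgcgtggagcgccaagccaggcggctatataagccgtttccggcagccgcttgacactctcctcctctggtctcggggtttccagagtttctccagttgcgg
Sesn1, chr10:41810324-41810623, plus strand, with the FoxO motif on the opposite strand from 23 to 29: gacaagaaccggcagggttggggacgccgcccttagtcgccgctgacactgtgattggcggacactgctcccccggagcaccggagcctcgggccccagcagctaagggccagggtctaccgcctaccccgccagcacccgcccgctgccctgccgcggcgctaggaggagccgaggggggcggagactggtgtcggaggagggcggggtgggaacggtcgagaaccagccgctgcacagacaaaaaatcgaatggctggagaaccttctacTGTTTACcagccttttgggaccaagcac
These matches describe the letters of the reference sequence and are not measurements of binding.

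The comparison of G1 with G0 asks whether the levels of these brakes depend on the cell cycle phase. Ddit4 was lower in the G1 than in the G0 library of every run, by about the same amount in both models fitted, and it was the 1 gene of the 9 tested that passed a threshold. The other 8 did not pass in either model. Txnip and Foxo1 had the highest mean levels per length. Sesn2 spanned 5.36-fold between runs.

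Whether Ddit4 passed depended on the run term. When only the phase was modelled, the quasi-likelihood test of edgeR called 0 of 9 genes, all with adjusted p = 0.9999 (Benjamini-Hochberg over 15192 genes), and 0 had an unadjusted p under 0.05. DESeq2 and limma-voom without the run also called 0 of 9. That model called 0% of all tested genes in either direction, and 2.8% had an unadjusted p under 0.05. Once the run entered the edgeR model as a block, it called 1 of 9 lower and 0 higher at an adjusted p of 0.05, where 0.764% of all tested genes were called lower and 0.481% higher, 1.24% in all. The median log2 fold change was 0.03 over the 9 genes and 0.01 over all tested genes with the block, and 0.04 over the 9 genes without it. Below, log2 fold changes are G1 over G0 with the block, followed by a standard error or a 95% interval, and p-values are adjusted over all tested genes.

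**Figure D1:**
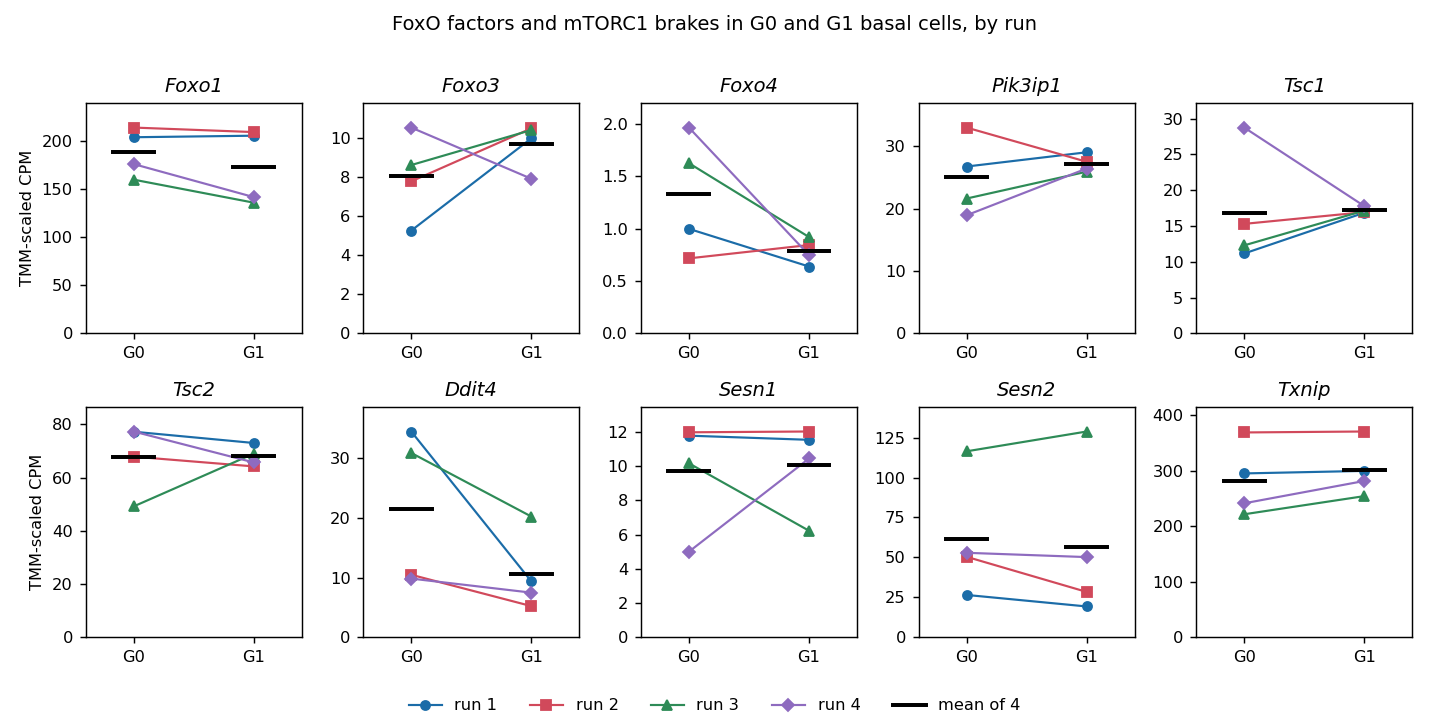
TMM-scaled CPM (y axis, from 0) of the 10 genes in G0 and G1 (x axis), with 1 line per run joining its 2 libraries and a black bar for the mean of 4. Ddit4 falls from G0 to G1 along all 4 lines, Sesn2 separates by run with run 3 at the top, and the G0 library of run 4 stands at 28.8 CPM for Tsc1.

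Among the stress brakes, Ddit4 (ENSMUSG00000020108, chromosome 10 from 59949669 to 59951834 on the minus strand of GRCm38) stood at 34.5, 10.5, 30.9 and 9.83 CPM in the G0 libraries of runs 1 to 4 and at 9.35, 5.21, 20.2 and 7.47 CPM in the G1 libraries. The ranges of the phases overlap, because runs 1 and 3 were high and runs 2 and 4 low in G0, and run 3 was also the highest in G1. Within the runs the G1 level was 0.271, 0.498, 0.655 and 0.76 times the G0 level. Of all tested genes, 9.44% were lower in G1 in every run. The G0 mean was 21.4 ± 13.1 CPM and the G1 mean 10.6 ± 6.65 CPM (SD, n = 4 each). The log2 fold change was -1.01 ± 0.22 with an adjusted p of 0.0142, which corresponds to a G1 level of 0.496 times that in G0 (95% interval 0.364 to 0.675). Without the block the fold change was -1.03 with a 95% interval from -2.17 to 0.11. With the block DESeq2 gave an adjusted p of 0.00916 and limma-voom 0.00628. Leaving out run 1 brought the fold change to -0.67 (adjusted p = 0.178), leaving out run 2 to -1.01 (adjusted p = 0.0596), and without run 3 or run 4 it was -1.18 or -1.17 (adjusted p = 0.000973 and 0.0205). In bulk RNA, fewer cells that express a gene and less RNA of it per cell cannot be told apart.

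Other cell types and a stress response were measured beside Ddit4. With the block, 13 of 14 endothelial markers were called lower in G1, with a median of -1.78. Of 10 fibroblast markers 4 were called lower, while 3 had a positive fold change, among them Dcn at 0.58 ± 0.16 (adjusted p = 0.0973). Of 4 tested adipocyte markers 1 was called lower, Lpl at -1.20 ± 0.20 (adjusted p = 0.00158). The list was split, with 2 negative and 2 positive fold changes, the latter Plin4 at 0.13 and Lep at 0.17. Of the tested luminal, pericyte, myeloid and lymphocyte markers 0 were called. Of 10 basal markers 2 were called higher, the smooth muscle genes Acta2 at 0.63 ± 0.10 (adjusted p = 0.000642) and Cnn1 at 0.55 ± 0.10 (adjusted p = 0.00324). Of 21 immediate early genes, which tissue dissociation also induces, 2 were called lower, Egr1 at -0.47 ± 0.10 (adjusted p = 0.0162) and Klf2 at -0.81 ± 0.19 (adjusted p = 0.0285), and all 21 had a negative fold change, with a median of -0.26. Within runs 1 to 4 the median log2 ratio of G1 to G0 was -2.21, -2.09, -1.25 and -1.48 over the endothelial markers. Over the immediate early genes the median was -0.19, -0.41, -0.32 and -0.11, and over the basal markers 0.24, 0.17, 0.33 and 0.16. The log2 ratio of Ddit4 itself was -1.86, -0.98, -0.61 and -0.39. The part of these genes in the Ddit4 difference was not tested.

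Sesn1 and Sesn2 encode sestrins, which p53 and, for Sesn2, the stress factor ATF4 induce. Sesn2 (ENSMUSG00000028893, chromosome 4 from 132492032 to 132510501, minus strand) stood at 26.5, 50.4, 116 and 52.9 CPM in G0 and at 19.3, 28.4, 129 and 50.2 CPM in G1 for runs 1 to 4. Run 3 was the highest and run 1 the lowest in both phases, and the phases overlap. The log2 fold change was -0.29 ± 0.15 (adjusted p = 0.427), with a 95% interval from -0.60 to 0.01, and G1 was lower in 3 runs and higher in run 3. Sesn1 (ENSMUSG00000038332, chromosome 10 from 41809935 to 41908424, plus strand) stood at 11.8, 12.0, 10.2 and 5.003 CPM in G0 and at 11.5, 12.0, 6.23 and 10.5 CPM in G1. Runs 3 and 4 moved in opposite directions and runs 1 and 2 hardly moved. Its fold change was 0.03 with an interval from -0.46 to 0.52, and -0.24 without run 4, whose G0 library held 28 counts of Sesn1.

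Tsc1 and Tsc2 encode hamartin and tuberin, the 2 subunits of the complex that turns Rheb off. Tsc1 (ENSMUSG00000026812, chromosome 2 from 28641228 to 28691167, plus strand) stood at 11.2, 15.3, 12.3 and 28.8 CPM in G0 and at 16.9, 16.9, 17.2 and 17.8 CPM in G1. The 4 G1 libraries lay close together, at 17.2 ± 0.414 CPM (SD, n = 4), while 3 G0 libraries lay below them and that of run 4 above. The fold change was 0.14 (95% interval -0.26 to 0.55, adjusted p = 0.841), and 0.40 without run 4 (adjusted p = 0.657). Tsc2 (ENSMUSG00000002496, chromosome 17 from 24595816 to 24632630, minus strand) stood at 77.3, 67.9, 49.2 and 77.4 CPM in G0 and at 73.0, 64.2, 69.0 and 65.7 CPM in G1. Run 3 was the lowest G0 library, and the G1 values lay within the G0 range. Its fold change was 0.02 with an interval from -0.25 to 0.30, and G1 was lower in 3 runs and higher in run 3. Without run 3 it was -0.14 (adjusted p = 0.809). Pkd1, on the opposite strand, shares 693 bases of exon with Tsc2, 7.20% of its exon length, and averaged 188 CPM.

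The 3 FoxO genes were present at very different levels. Foxo1 (ENSMUSG00000044167, chromosome 3 from 52268336 to 52353221, plus strand) stood at 204, 214, 160 and 176 CPM in G0 and at 206, 210, 136 and 142 CPM in G1. Runs 1 and 2 were high and runs 3 and 4 low in both phases. Its fold change was -0.14 with an interval from -0.37 to 0.09 (adjusted p = 0.675). Gm20402, an antisense gene, shares 674 exon bases with Foxo1, 7.78% of its exon length, and averaged 57.2 CPM. Foxo3 (ENSMUSG00000048756, chromosome 10 from 42181841 to 42276755, minus strand) stood at 5.26, 7.78, 8.62 and 10.5 CPM in G0 and at 9.99, 10.5, 10.4 and 7.92 CPM in G1. It was higher in G1 in runs 1 to 3 and lower in run 4. Its fold change was 0.32 with an interval from -0.16 to 0.80 (adjusted p = 0.627), 0.13 without run 1 (adjusted p = 0.92) and 0.53 without run 4 (adjusted p = 0.622). Foxo4 (ENSMUSG00000042903, chromosome X from 101254528 to 101260873, plus strand) had 5 to 23 counts per library, or 0.638 to 1.97 CPM. Fitted without the low-count filter and with the block, its fold change was -0.60 with an interval from -1.93 to 0.73 (adjusted p = 0.816). At this depth the interval is wide and takes in both falls and rises.

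Pik3ip1 acts at PI3K, and Txnip on glucose uptake and redox balance. Pik3ip1 (ENSMUSG00000034614, chromosome 11 from 3330401 to 3342971, plus strand) stood at 26.8, 33.01, 21.6 and 18.9 CPM in G0 and at 29.0, 27.5, 25.9 and 26.4 CPM in G1. The G1 values lay within the G0 range. Its fold change was 0.14 with an interval from -0.19 to 0.46 (adjusted p = 0.801), and 0.28 without run 2 or 0.03 without run 4. Txnip (ENSMUSG00000038393, chromosome 3 from 96557957 to 96561883, plus strand) stood at 295, 369, 221 and 241 CPM in G0 and at 300, 370, 254 and 281 CPM in G1. G1 was 1.015, 1.005, 1.15 and 1.17 times G0 within the runs. Its fold change was 0.11 with an interval from -0.11 to 0.33 (adjusted p = 0.742). The antisense gene Gm15441 shares 606 exon bases with Txnip, 19.4% of its exon length, and averaged 78.5 CPM. Whether reads were counted by strand is not known here, so in the shared exon bases reads of Txnip, Foxo1 and Tsc2 cannot be told from those of the overlapping genes. Pik3ip1 shares 91 exon bases, 2.13%, with Gm12592 on the opposite strand, which averaged 5.16 CPM.

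**Figure D2:**
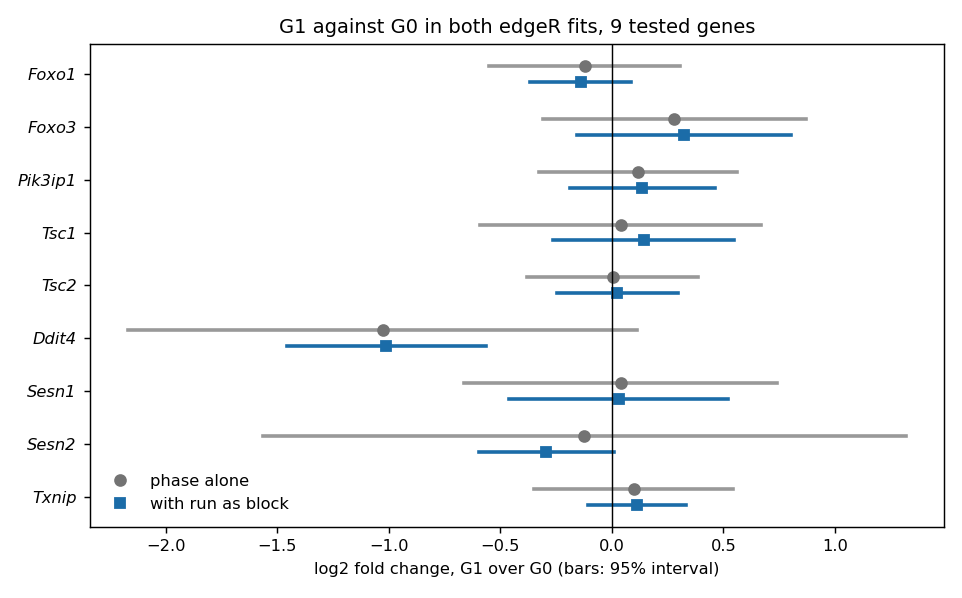
Log2 fold change of G1 over G0 (x axis) for the 9 tested genes (y axis), with 95% intervals, from the edgeR fit with the phase alone (grey circles) and with the run as a block (blue squares). Only the blocked interval of Ddit4, from -1.46 to -0.57, lies off 0, and the interval of Sesn2 narrows most, from -1.57 to 1.32 down to -0.60 to 0.01.

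Levels were compared between genes per kilobase of exon. In G0, Txnip stood at 90.2 ± 21.1 CPM per kilobase, Foxo1 at 21.8 ± 2.88, Sesn2 at 17.7 ± 11.1, Ddit4 at 12.2 ± 7.46, Tsc2 at 7.06 ± 1.38 and Pik3ip1 at 5.87 ± 1.45 (SD, n = 4). Sesn1 at 2.45 ± 0.819, Tsc1 at 1.43 ± 0.686, Foxo3 at 1.06 ± 0.289 and Foxo4 at 0.38 ± 0.164 followed. The median over all tested genes was 4.63. Txnip lay above Foxo1 in every pair of G0 libraries, Pik3ip1 above Sesn1 and Foxo3 above Foxo4. All other neighbours in this order overlapped in range. In G1 the order was the same except that Ddit4, at 6.02 ± 3.79, moved below Tsc2 at 7.07 ± 0.406 and Pik3ip1 at 6.38 ± 0.322, and its range overlapped both Pik3ip1 and Sesn1. There Sesn1, Tsc1, Foxo3 and Foxo4 did not overlap their next neighbours.

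Levels were also compared between the runs. The test of the run term, chosen after the values had been seen, called 4 of 9 genes different between runs, Sesn2, Ddit4, Foxo1 and Txnip. That is 44.4%, against 35.6% of all tested genes, so the count does not set these genes apart. Sesn2 averaged 22.9, 39.4, 123 and 51.5 CPM over both phases in runs 1 to 4, a 5.36-fold span (adjusted p = 1.03e-08, edgeR). The median span of all tested genes was 1.67-fold. Ddit4 spanned 3.26-fold, from 7.84 CPM in run 2 to 25.5 CPM in run 3 (adjusted p = 9.48e-05). Foxo1 spanned 1.43-fold and Txnip 1.55-fold, both highest in run 2 and lowest in run 3 (adjusted p = 0.0166 and 0.00733). Neither passed in every setting, since the adjusted p of Txnip was 0.185 without run 2 and that of Foxo1 was 0.11 without run 3. The sources used here do not say how the runs differed.

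**Figure D3:**
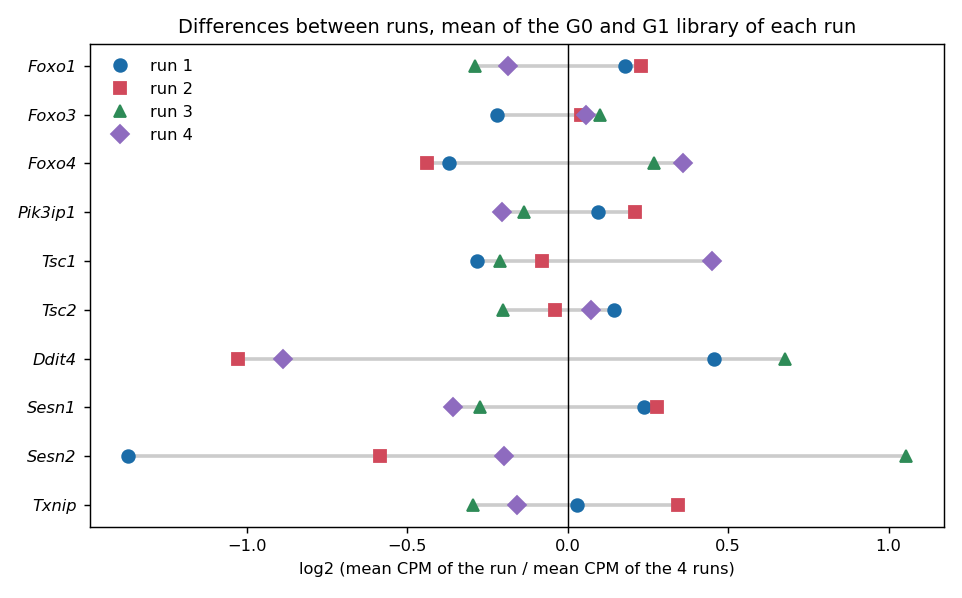
Mean CPM of the 2 libraries of each run over the mean of the 4 runs, on a log2 axis (x), for the 10 genes (y axis). Sesn2 and Ddit4 spread most widely, with run 3 the highest for both, while Foxo1 and Txnip were lowest in run 3.

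Genes that share inputs with Sesn2 and Txnip were then read by run. Of 12 genes of the ATF4 list, the amino acid and unfolded protein stress response, 10 differed between runs and 9 of those were highest in run 3, against 15.7% of all tested genes that differed with run 3 highest. Atf4 itself averaged 401, 471, 838 and 653 CPM in runs 1 to 4, the glutathione-degrading enzyme gene Chac1 1.76, 4.65, 16.2 and 8.17, and Trib3, a pseudokinase that binds AKT, 9.97, 16.6, 28.0 and 18.5. These 3 genes and Sesn2 ranked the runs alike, with run 1 lowest, then runs 2, 4 and 3. They were picked for that after their values had been seen. The order did not hold throughout the list, where Asns averaged 73.9, 93.3, 72.5 and 81.6 CPM and Phgdh 31.4, 37.4, 42.6 and 52.6 CPM. Of the 13 partners of Txnip, 6 differed between runs, or 46.2%, against 35.6% of all tested genes. Of those 6, 3 were highest in run 3 and 3 lowest there. Chosen from the latter after their values had been seen, the arrestin-like genes Arrdc3 and Arrdc4, relatives of Txnip, were lowest in run 3 as Txnip was, at 35.5 and 51.9 CPM against 51.1 to 96.6 and 102 to 115 CPM in the other runs. Of the immediate early genes 19 of 21 differed and were highest in run 3, and so were 8 of 10 fibroblast and 8 of 11 tested luminal markers, while 5 of 10 basal markers differed and were lowest there, against 13.6% of all tested genes. The part of these markers in the differences between runs was not tested.

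Likeness was measured as Pearson's r of log2 CPM over the 8 libraries against 10044 genes at a mean log2 CPM of at least 3. Libraries of a run share that run, so these values are a description, with no test. The genes most like Ddit4 were Gm16066 (r = 0.954), Irf2bp2 (0.932) and Gm26873 (0.922). Those most like Sesn2 were Mcm9 (0.981), Gm16059 (0.981) and Zfp821 (0.979). Foxo1 was most like Nfatc1 (0.980), Ahnak2 (0.9746) and Sox9 (0.960), and Txnip most like Kat7 (0.983), Actn4 (0.973) and Plxdc2 (0.967). None of these 12 genes was called between the phases, where 1.24% of all tested genes were called with the block.

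Downstream of FoxO, 1 of 20 tested target genes was called higher in G1 and 0 lower with the block, against 0.481% and 0.764% of all tested genes. Of the 20, 10 had a positive and 10 a negative fold change, and the median was 0.01. The called gene was Fbxo32, which encodes the ubiquitin ligase atrogin-1. Its mean was 61.8 ± 12.6 CPM over the G0 and 94.97 ± 17.9 CPM over the G1 libraries (SD, n = 4 each). It was higher in G1 in 4 of 4 runs, and 20.8% of all tested genes had the same sign in all 4 runs. Fbxo32 rose by 0.61 ± 0.13 with the block (adjusted p = 0.00882). Without run 4 its adjusted p was 0.12, and edgeR without the block called no gene of any list. Of the 10 basal markers only Acta2 and Cnn1 were called, with fold changes of like size in the same direction. Krt5, Krt14, Trp63 and Itgb4 had 0.05, 0.05, -0.01 and -0.17. In that list 8 fold changes were positive and 2 negative, with a median of 0.20. The part of the cell makeup in the Fbxo32 difference was not tested. Cat, catalase, had 0.39 ± 0.13 (adjusted p = 0.17) and Pdk4, a kinase that curbs glucose oxidation, 0.30 ± 0.12 (adjusted p = 0.275). Sesn3, the remaining sestrin gene and also on this list, had 0.21 ± 0.21 (adjusted p = 0.763).

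In the arms that lead to mTORC1, 0 of 21 PI3K and AKT genes, 0 of 19 genes of the mTOR complexes with Rheb and substrates, 0 of 27 Rag and nutrient sensing genes and 0 of 12 AMPK and LKB1 genes were called with the block. Of all tested genes 1.24% were called in that fit, so 0 in lists of this size does not set them apart. The list medians were -0.15, -0.02, 0.05 and 0.09. Unadjusted p-values under 0.05 numbered 0, 0, 4 and 0 in that fit, where 12.3% of all tested genes had one. Fnip2, a partner of folliculin, had -0.76 ± 0.24 (adjusted p = 0.138, but 0.0188 without run 3), and the GTPase gene Rragd 0.58 ± 0.21 (adjusted p = 0.226). Mlst8, a subunit of both mTOR complexes, had 0.36 ± 0.18 and the mTOR inhibitor Deptor -0.21 ± 0.11 (adjusted p = 0.428 and 0.477). Of 13 thioredoxin and glucose sensing partners of Txnip 0 were called, with a median of -0.03. There Mlxipl, which encodes the glucose-responsive factor ChREBP, had -0.78 ± 0.31 (adjusted p = 0.279) and the glucose transporter gene Slc2a1 -0.23 ± 0.10 (adjusted p = 0.367), while Slc2a4, the insulin-responsive transporter gene, had 0.33 ± 0.14 (adjusted p = 0.321). The other genes with the 3 smallest p in their lists were Pik3r2, Inpp4b and Irs2 at 0.27, -1.03 and -0.19, Ulk1 at -0.27, Lamtor5 at 0.33, and Cab39l, Prkag1 and Stradb at 0.30, 0.25 and 0.25, with adjusted p from 0.339 for Lamtor5 to 0.691 for Stradb.

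Lists of the stress inputs known to induce Ddit4 and the sestrins did not yield a called gene in edgeR with the block. The counts were 0 of 10 glucocorticoid, 0 of 16 hypoxia, 0 of 12 ATF4 and 0 of 11 p53 target genes. Of all tested genes 1.24% were called, so 0 in lists this short does not set them apart. The list medians were -0.08, -0.03, 0.17 and 0.13. Unadjusted p-values under 0.05 numbered 3 of 10, 4 of 16, 5 of 12 and 5 of 11, against 12.3% of all tested genes in the same fit. Dusp1, a MAP kinase phosphatase, had -0.41 ± 0.12 (adjusted p = 0.0849), Ndrg1 -0.35 ± 0.11 (adjusted p = 0.11), Vegfa, the endothelial growth factor, -0.31 ± 0.11 (adjusted p = 0.19) and Cdkn1a, encoding p21, -0.33 ± 0.11 (adjusted p = 0.14), all lower in G1 in 4 of 4 runs. The other p53 targets with the smallest p went both ways, with -0.31 ± 0.11 for the antiproliferative gene Btg2 (adjusted p = 0.214, lower in 4 of 4 runs) and 0.28 ± 0.11 for Perp, a gene of cell adhesion and death (adjusted p = 0.239, higher in 4 of 4 runs). The glucocorticoid targets Zbtb16 and Per1 had -0.59 ± 0.24 and -0.31 ± 0.14 (adjusted p = 0.288 and 0.369). The serine synthesis genes Psat1 and Phgdh had 1.02 ± 0.27 and 0.48 ± 0.14 (adjusted p = 0.0822 and 0.116), higher in 4 of 4 runs, as was the stress gene Nupr1 at 0.45 ± 0.15 (adjusted p = 0.18). Of all tested genes 20.8% had the same sign in all 4 runs, and the genes named here were picked by their p in the blocked fit. The adjusted p of Psat1 was 0.00287 without run 1, 0.00718 without run 3 and 0.0486 in DESeq2 with the block, and that of Dusp1 was 0.0219 without run 4 and 0.0421 in limma-voom with the block. Ndrg1 had one of 0.0356 in DESeq2 with the block.

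**Figure D4:**
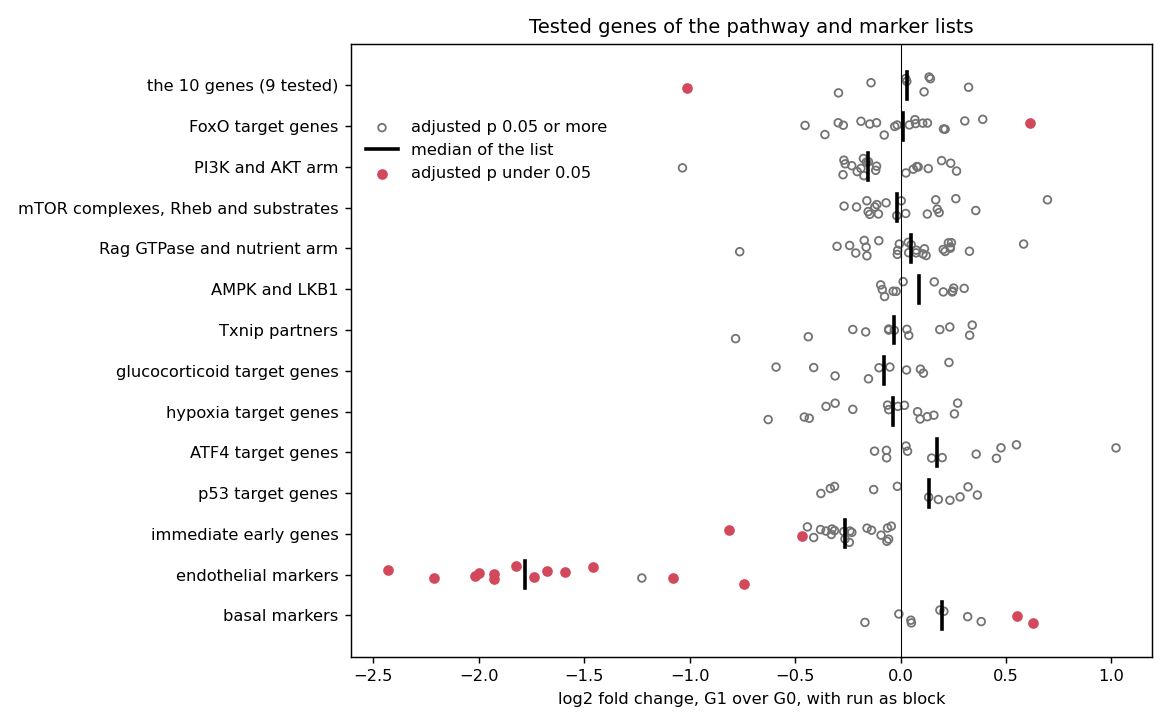
Log2 fold change of G1 over G0 with the run as a block (x axis) for each tested gene of the lists (y axis), filled red where the adjusted p is under 0.05, with a black bar at the list's median. Ddit4 lies far to the left of the other 8 genes in the top line and Fbxo32 is the called FoxO target, while 13 of 14 endothelial markers are called lower.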

How the data were processed

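RNA of 8 libraries, 4 per phase, was measured. Per the submitters' processing notes the tools were STAR 2.5.2a and Trimmomatic 0.35 and the build mm10. The authors deposited 1 table of whole-number counts for Ensembl gene identifiers, not normalized. Counting program, strand setting and annotation: not given in the sources used here. Identifiers were named with GENCODE M21 on GRCm38 (54808 matched, 29 did not). Libraries were grouped by the phase and run in their titles. No 2 libraries of a group were duplicates.

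Counts were tested with edgeR 4.0.16 (R 4.3.3, robust quasi-likelihood, TMM, filterByExpr) at an adjusted p of 0.05, with the phase alone as the set model. A standard error is the size of the log2 fold change divided by the root of the F statistic, and log2 CPM used a prior count of 2. Deviations from the phase means correlated at 0.668, 0.470, 0.638 and 0.437 between the libraries of runs 1 to 4 and at no more than 0.0971 between runs. The run numbers in the titles therefore pair the libraries, and results with the run as a block are printed. Alternatives were RLE factors, other filters, DESeq2 1.42.0, limma-voom (limma 3.58.1) and libraries or runs left out. The fits were tested on simulated data. There edgeR and limma-voom with the block made more false calls than the threshold allows on average, and DESeq2 with the block did not. With the phase alone, edgeR missed most of the smaller changes.

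The genes described and the lists were chosen with earlier results of these data known. Named genes are the 10, the 3 of smallest blocked p in a pathway list and the 3 most alike. Egr1, Klf2, Atf4, Chac1, Trib3, Asns, Arrdc3, Arrdc4, Sesn3 and the cell type markers named lie outside that rule and were chosen with their values known. The test of the run term was added after the data were seen. Counts per gene set the precision, and intervals cover the spread between these libraries.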

Additional observations from a re-analysis of the deposited data

Results flagged for a closer look

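None of the 10 genes had a library that stood apart from the other 3 of its phase by Dixon's test of the gap between the outermost value and its neighbour over the range. Among 58 groups of 4 values looked at, list sums included, 6 stood apart. The rule flags about 1 in 20 groups of independent, normally distributed values. The CPM were not put on a log scale, and the list sums share libraries and some genes, so that rate is no test here. In the G0 library of run 3 the fibroblast markers summed to 977 CPM, against 373 CPM in the next library. The immediate early genes summed to 13956 CPM in the G0 and 11876 CPM in the G1 library of run 3, against 7772 and 6398 CPM in the next ones. The p53 target genes summed to 2217 CPM in the G1 library of run 3, against 1872. In the G1 library of run 4 the myeloid markers summed to 65.4 CPM, against 31.0, and the pericyte markers to 16.3 CPM, below 25.6 in the next.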

How the results depend on the processing

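The replicate block changed the counts most. The replicate block alone called 73 genes higher and 116 lower in all, 1 of the 10 genes lower, 1 FoxO target higher and 2 immediate early genes lower, where the phase alone gave 0. With the block, DESeq2 called 97 higher and 136 lower, limma-voom 77 and 134, RLE factors 74 and 123, and at least 10 counts in all 8 libraries 53 and 92. In each of these 4 Ddit4 was the 1 of the 10 genes called lower and 1 FoxO target was higher, and immediate early genes called lower numbered 4, 4, 3 and 3. DESeq2 with the block also called 1 hypoxia target lower and 1 ATF4 target higher, and limma-voom with it 1 glucocorticoid target lower. Without the block, no low-count filter gave 14 higher and 73 lower and DESeq2 10 and 24, none of them among the 10 genes, while RLE factors, the stricter filter and limma-voom gave 0 and 0. The causes of these differences were not tested.

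With a library left out (no block) or a run left out (block), genes called ranged from 0 to 99 higher and from 0 to 175 lower. Without runs 1 to 4 the block gave 99, 63, 73 and 21 higher and 175, 90, 144 and 76 lower. Ddit4 was called in 2 of the 4 settings with a run left out and in 0 without a library. FoxO targets called higher ranged from 0 to 1, as did ATF4 targets higher and Rag arm and glucocorticoid genes lower, and immediate early genes lower from 0 to 3. Genes differing between runs numbered 2231 without run 3, against 4328 to 5379 without another run and 5411 with all. Fold changes near 0 changed sign. Tsc2 had -0.013 with at least 10 counts in all libraries and Sesn1 -0.041 in limma-voom with the block. Without single libraries Sesn1 ranged from -0.17 to 0.21 and Tsc2 from -0.12 to 0.081, and Tsc1 had -0.0072 with the block and without run 1. Over libraries and runs left out Sesn1 ranged from -0.24 to 0.26, Sesn2 from -0.93 to 0.40, Tsc1 from -0.11 to 0.41, Tsc2 from -0.14 to 0.097, Txnip from -0.013 to 0.26, Slc2a4 from -0.011 to 0.45, Nupr1 from -0.67 to 1.55, Irs2 from -0.41 to 0.00027 and Ulk1 from -0.52 to 0.0049. Ddit4 kept a negative sign in all 22 settings, as did Foxo1, and Foxo3 and Pik3ip1 a positive one. Depth limits Foxo4 most, at 5 to 23 counts.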
